A study of Rattus norvegicus with 2 samples.

Results

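The respiratory chain and ATP synthase genes of rat sympathetic neurons were compared between 2 arrays, 1 of neurons cultured alone and 1 of neurons taken from co-culture with myocytes. Members were the genes named as subunits of complexes I to V (symbols starting with Nduf, Uqcr, Cox4 to Cox8 or Atp5, with Sdha to Sdhd, Cyc1 and Cycs), each read from the brightest of its probe sets that carry exactly 1 symbol in the platform annotation. The rule found 85 genes of the 10411 with such a probe set. Of these, 41 were grouped under complex I, 4 under complex II, 8 under complex III, 16 under complex IV and 16 under complex V. They comprised 78 subunit genes, including tissue isoforms and the Cox7a-related gene Cox7a2l, 5 assembly factors of complex I, 1 inhibitor of ATP synthase and 1 pseudogene. Cycs, the mobile electron carrier cytochrome c, was read only by probe sets that also carry the symbols of related genes, so it was not a member.

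The respiratory chain passes electrons from NADH (complex I) and succinate (complex II) through complex III and cytochrome c to oxygen at complex IV, and pumps protons out of the mitochondrial matrix. Complex V, the ATP synthase, lets the protons return and makes ATP. In sympathetic neurons this ATP feeds, among other things, the ion pumps and the loading of transmitter vesicles.

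Both groups were rat sympathetic neurons, differing by title and source name in whether a myocyte target was present. Neurons were lifted from the dish with EDTA, and the protocol names myocytes or other flat cells as what was left behind. The age of the animals, the time in culture and the number of cultures behind an array are not given in the labels, and the description of the co-culture sample names neurons grown alone, a conflict that could not be settled. With 1 array per condition there was no spread between replicates and no test, so every value compares these 2 arrays and not the conditions.

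Signals are deposited intensities on a linear scale. Signals of different probe sets cannot be set against each other, so each gene is compared only with itself. A gene passed the filter if its signal reached the array median (185.7 in neurons alone, 175.0 in neurons from co-culture) in at least 1 array, which 6368 genes did. Between probe sets of the same gene, the log2 ratio of co-culture over alone had an SD of 0.28 for 1 probe set (749 genes), and of 0.21 among the 187 brightest of these genes. Of the 85 members 79 passed, and 70 were also at or above the 75th percentile of an array.

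Most chain genes had a higher signal in neurons from co-culture, by small amounts. Of the 79 members that passed, 61 were higher and 18 lower, whereas 47.3% of all genes passing the filter were higher, and 52.7% of the 3400 genes at or above the 75th percentile. The median log2 ratio of the members was 0.14, a fold of 1.10, against -0.01 for all genes passing the filter and 0.02 for those at or above the 75th percentile. A log2 ratio of at least 0.32, a fold of 5 to 4, was seen for 13 members in the higher direction (16.5%), against 8.54% of all genes passing the filter, and for 4 in the lower direction (5.06%), against 12.7%. The count of 13 ran from 7 with the spiked controls (8.86%, against 4.95% of all genes) to 26 under median scaling (32.9%, against 14.1%). At least 1.5-fold higher were 3 members, against 1.93% of all genes, and none was 1.5-fold lower, against 3.3%. No member reached 2-fold, which 0.942% of all genes did. The split depended on the scaling. With the arrays scaled to their spiked bacterial and phage controls, 45 members were higher and 34 lower (57.0% higher, against 32.5% of all genes). The signals of these controls were themselves higher by a median log2 ratio of 0.09. After a lowess correction 55 were higher and 24 lower (69.6% higher, against 51.5%), and after quantile normalization 59 and 20 (74.7%, against 52.7%). The median of the members lay 0.16 above that of all genes both as deposited and with the spiked controls. It lay 0.10 above under lowess and 0.09 above under quantile normalization, which correct by brightness.

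**Figure D1:**
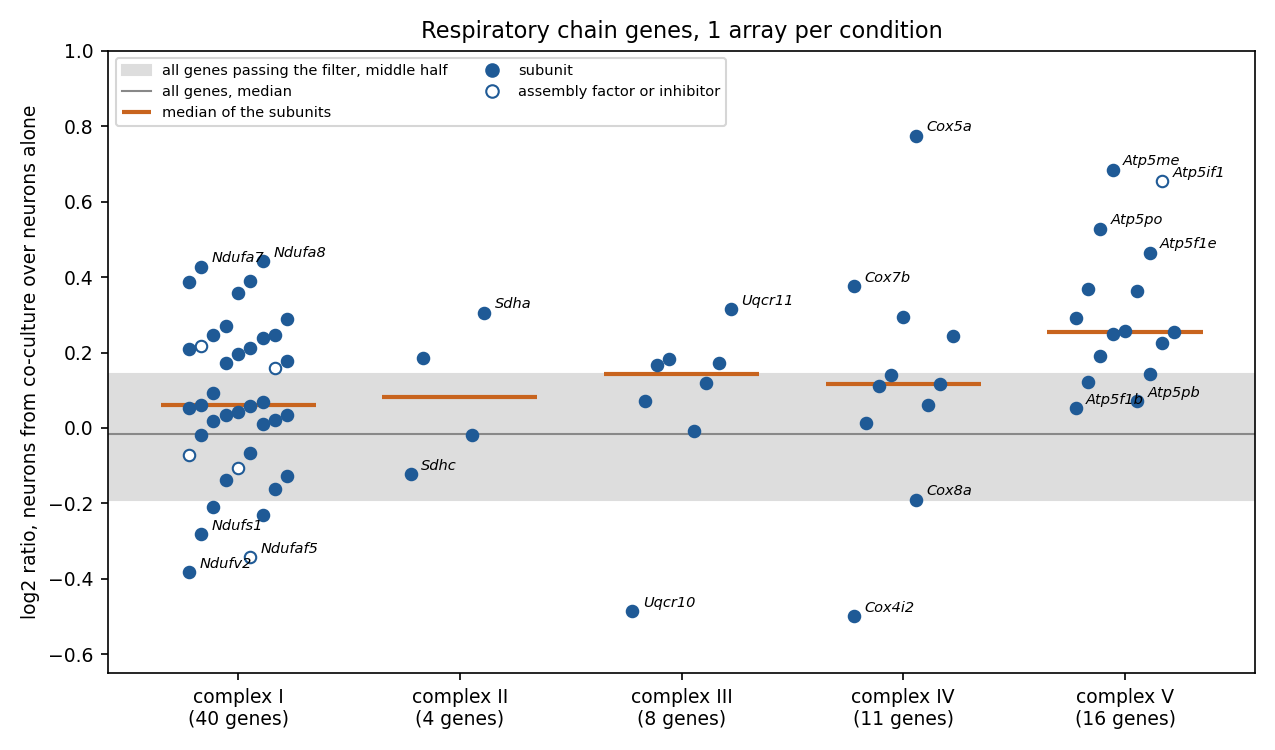
Log2 ratio of co-culture over alone for the 79 members passing the filter, by complex, with filled points for subunits, open points for assembly factors and the inhibitor, orange bars for subunit medians, and the grey line and band for the median and interquartile range of all genes. All 16 complex V genes lie above 0, while complexes I to IV have members on both sides.

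ATP synthase was the complex in which every member passing the filter was higher in neurons from co-culture. Its 15 subunits had a median log2 ratio of 0.26 (fold 1.19), with a range from 0.05 to 0.68. The 58 subunits of complexes I to IV that passed had a median of 0.10, with 43 higher and 15 lower. A log2 ratio of 0.32 or more was seen for 5 of the 15 ATP synthase subunits (33.3%) and 7 of the 58 others (12.1%), against 8.54% of all genes passing the filter. The count of 15 became 14 after quantile normalization and 13 after a lowess correction or scaling to the spiked controls. The subunits that turned were Atp5f1b and Atp5pb, those with the smallest ratios.

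The 4 ATP synthase subunits with the largest log2 ratios were chosen by ratio alone, and whether they share regulation was not tested. Their promoters are shown. Each is the 150 bases before the annotated start in RefSeq (GRCr8), 5′ to 3′, and capitals mark any match to the letters searched. The stretches are chr14:1464710-1464859 (plus strand) for Atp5me, chr11:44657484-44657633 (minus) for Atp5po, chr3:183680173-183680322 (minus) for Atp5f1e and chr8:54130408-54130557 (minus) for Atp5mg.
Atp5me: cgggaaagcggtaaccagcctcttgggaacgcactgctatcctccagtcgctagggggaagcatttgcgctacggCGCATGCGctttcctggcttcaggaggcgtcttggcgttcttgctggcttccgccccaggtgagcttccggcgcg
Atp5po: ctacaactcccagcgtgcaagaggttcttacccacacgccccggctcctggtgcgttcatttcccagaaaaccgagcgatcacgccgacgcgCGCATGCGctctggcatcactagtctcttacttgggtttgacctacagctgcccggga
Atp5f1e: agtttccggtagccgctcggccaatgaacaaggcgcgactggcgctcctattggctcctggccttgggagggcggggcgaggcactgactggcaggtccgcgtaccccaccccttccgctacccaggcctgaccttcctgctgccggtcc
Atp5mg: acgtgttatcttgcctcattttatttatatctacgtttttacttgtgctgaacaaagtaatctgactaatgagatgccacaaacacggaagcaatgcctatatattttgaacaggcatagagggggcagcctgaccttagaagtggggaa

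The letters searched, on both strands, were CGCANGCG for NRF1, CCGGAAGT for GABP and other ETS factors, and AAGATGGC for YY1, factors known to bind promoters of chain genes. RefSeq promoters of 300 bases (250 before the start and 50 after it) were matched for 65 of the 73 subunit genes that passed the filter. At least 1 of the motifs was held by 39 of them (60.0%), against 16.5% of 21842 protein-coding promoters and 13.2% of all 33469. The NRF1 letters were in 9 of 14 ATP synthase promoters (64.3%), 9 of 33 of complex I (27.3%), 2 of 4 of complex II, 2 of 6 of complex III (33.3%) and 1 of 8 of complex IV (12.5%), against 9.88% of protein-coding promoters. With a G before and a C after these letters, a longer form that was searched first, they were in 5 of the 14 ATP synthase promoters (35.7%) and 6 of the 33 complex I promoters (18.2%), against 5.66%. The YY1 letters were in 4 of the 14 (28.6%) and 8 of the 33 (24.2%), against 3.68%. For the GABP and ETS letters the counts were 1 of 14 (7.14%) and 3 of 33 (9.09%), against 4.78%. These letters were also in 2 of 6 promoters of complex III, 2 of 8 of complex IV and 0 of 4 of complex II. Among all subunit promoters, 8 of 65 held them (12.3%). In the printed stretches, Atp5me and Atp5po each hold 1 NRF1 match, and no motif was found in those of Atp5f1e and Atp5mg. Elsewhere in the 300 bases, Atp5mg holds an NRF1 match, Atp5me and Atp5po each hold a YY1 match, and Atp5f1e holds none. A match describes the letters alone, and binding was not measured here.

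Within ATP synthase the parts differed in size of the ratio, with 2 to 6 genes per part. The catalytic head had the smallest median log2 ratio, 0.09. Small ratios also went with bright probe sets. Those of Atp5f1b, Atp5mc3, Atp5pb and Atp5f1a were the brightest of the complex and had its smallest log2 ratios (0.05, 0.14, 0.07 and 0.12). These genes belong to the head, the membrane part and the peripheral stalk. Whether the size of the ratio followed the part or the brightness was not tested. Atp5f1b, the catalytic beta subunit, had 6861 in neurons alone and 7115 after co-culture (1.04-fold), and Atp5f1a, the alpha subunit beside it, had 3764 and 4099 (1.09-fold). The log2 ratio of Atp5f1b ran from -0.11 to 0.14 over the scalings, so its direction was not settled. The rotating central stalk, which couples proton flow to the head, had larger ratios. Its gamma subunit Atp5f1c had 2199 and 2830 (1.29-fold), the delta subunit Atp5f1d had 2519 and 3010 (1.19-fold), and the epsilon subunit Atp5f1e had 1078 and 1488 (1.38-fold).

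The peripheral stalk, which holds the head still while the rotor turns, ranged from 0.07 to 0.53 on the log2 scale over its 4 genes. Atp5po, the subunit that joins the stalk to the head and lends the enzyme its sensitivity to oligomycin, read 1709 alone and 2465 after co-culture, 1.44-fold higher. Atp5pb, the b subunit, had 3796 and 3989, 1.05-fold. Atp5pf and Atp5pd lay between them at 1.19-fold and 1.17-fold.

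Genes of the membrane part included the largest ratio of the complex. Atp5me, the e subunit that takes part in the dimerisation of the enzyme, had 617 and 992, 1.61-fold higher, and its other, dim probe set was higher as well (27.0 and 84.9, the lower value under the floor of 39.6 used for log2 ratios). Atp5mg, the g subunit, had 1836 and 2371 (1.29-fold), Atp5mf 2078 and 2544 (1.22-fold), Atp5mk 2404 and 2870 (1.19-fold) and Atp5mpl 1048 and 1196 (1.14-fold). Atp5mc3, 1 of 3 genes for the c subunit of the proton-driven ring, had 5033 and 5558 (1.10-fold). The other c-subunit genes were read by probe sets shared with related loci, at 2689 and 2762 for Atp5mc1 (1.03-fold) and 2714 and 3403 for Atp5mc2 (log2 ratio 0.33).

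Atp5if1, which blocks ATP synthase from running backwards and consuming ATP, was the second highest of the complex. Its signal was 919 alone and 1446 after co-culture, 1.57-fold higher, and 59.1 and 91.2 on a dimmer probe set (1.54-fold). Its remaining probe set was under the floor in both arrays.

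**Figure D2:**
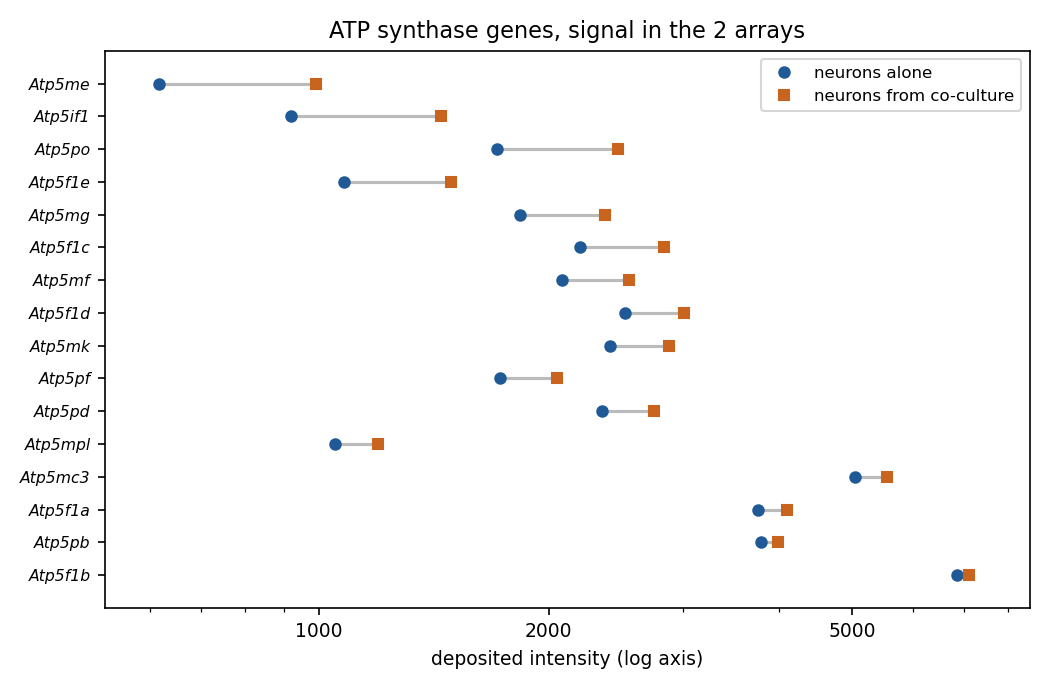
Deposited intensity (log axis) of the 16 complex V genes in neurons alone (circles) and neurons from co-culture (squares), ordered by log2 ratio. The gap is widest for Atp5me (617 and 992) and narrowest for Atp5f1b (6861 and 7115).

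Complex I, the entry point for electrons from NADH, was divided. Of its 35 subunits passing the filter 26 were higher and 9 lower, with a median log2 ratio of 0.06, or -0.03 with the spiked controls. Over the scalings 15 stayed higher, 7 stayed lower and 13 changed sign. At a log2 ratio of 0.32 or more were 5 subunits (14.3%, against 8.54% of all genes). They were among the 29 accessory subunits, which surround the catalytic core and make up most of those measured. Ndufa8 had signals of 867 and 1178 (1.36-fold higher), Ndufa7 1094 and 1472 (1.35-fold), Ndufa11 1247 and 1633 (1.31-fold), Ndufb6 1334 and 1746 (1.31-fold) and Ndufa2 663 and 851 (1.28-fold).

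The core subunits of complex I lay on both sides of 0. The 6 measured ones, most of which carry flavin or iron-sulphur clusters, had a median of 0.04 and a mean of -0.03. Ndufv2, which binds an iron-sulphur cluster near the NADH site, read 1377 alone and 1056 after co-culture, 1.30-fold lower and the lowest ratio of complex I. Ndufs1, the large iron-sulphur subunit of the same arm, was lower as well (778 and 639, 1.22-fold). Their partner Ndufv1, which binds NADH and flavin, was higher, at 1278 and 1478 (1.16-fold). Ndufs7, near the quinone site, had 1065 and 1203 (1.13-fold), and Ndufs3 and Ndufs8 were within 1.03-fold.

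The brightest complex I probe sets were those of Ndufa4, Ndufb9 and Ndufa12. Ndufa4, which is named for complex I but is now assigned to complex IV, had 2972 and 2836, with a log2 ratio from -0.16 to 0.02 over the scalings. Ndufb9 had 2683 and 3235 (1.21-fold higher), and Ndufa12 2201 and 2255 (1.02-fold). Ndufa4l2, a hypoxia-induced relative of Ndufa4, was below the filter at 73.7 and 74.7. Ndufb4 (2280 and 1943, 1.17-fold lower) and Ndufb11 (1921 and 1660, 1.16-fold lower) were the lowest of the membrane-arm Ndufb subunits. For Ndufv3 the probe sets disagreed: the brighter was 1.10-fold lower (583 and 530) and the dim one 1.55-fold higher (72.6 and 112).

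The 5 assembly factors of complex I, which help to build the enzyme without staying in it, had a median of -0.07. Ndufaf5 was 1.27-fold lower (241 and 190), Ndufaf3 1.08-fold lower (380 and 353) and Ndufaf7 1.05-fold lower (225 and 214), the last with a log2 ratio of up to 0.02 over the scalings. Higher were Ndufaf8 (267 and 311, 1.16-fold) and Ndufaf4 (347 and 388, 1.12-fold).

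**Figure D3:**
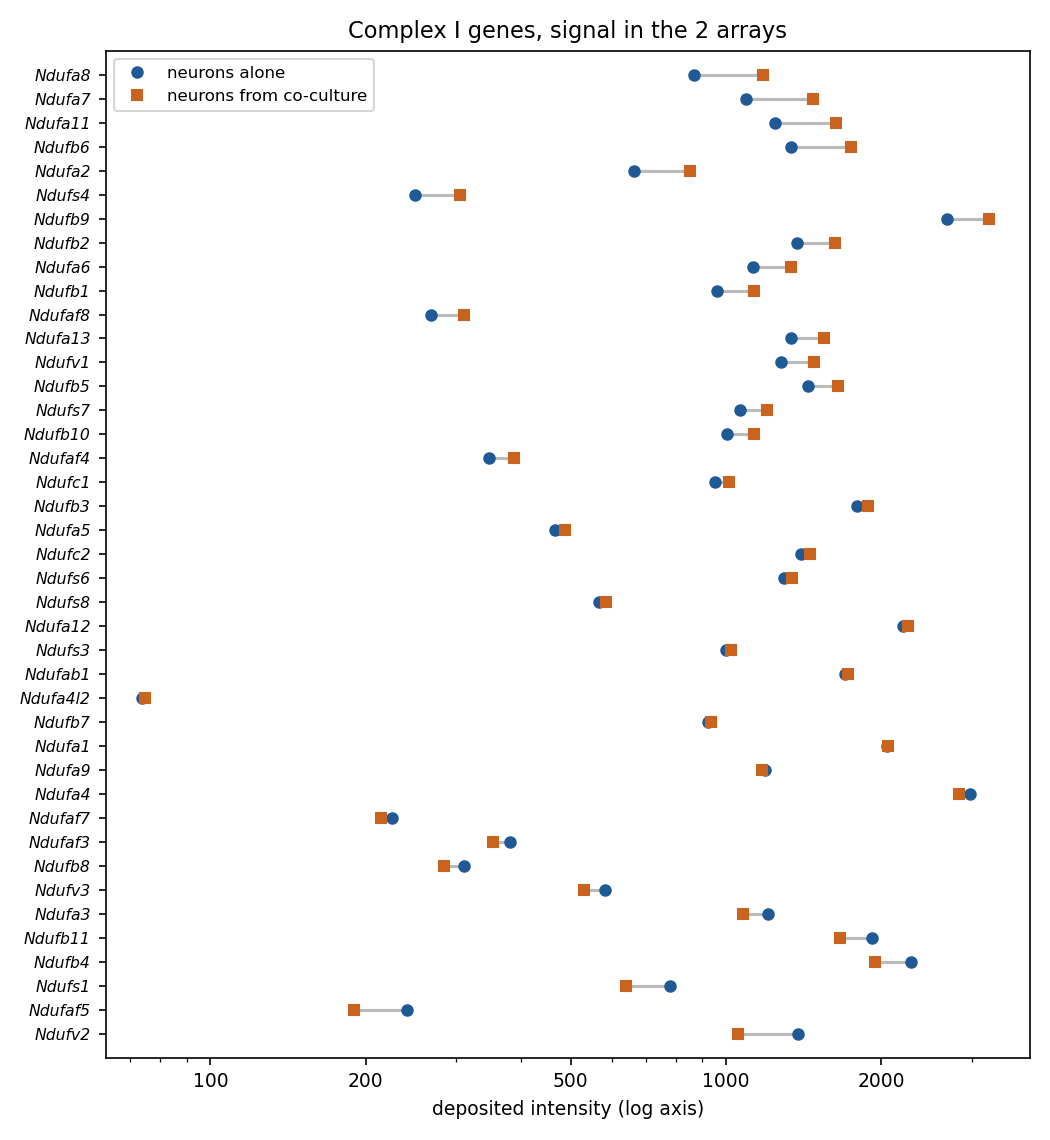
Deposited intensity (log axis) of the 41 complex I genes, Ndufa4l2 below the filter included, in neurons alone (circles) and neurons from co-culture (squares), ordered by log2 ratio. The upper genes, from Ndufa8 (867 and 1178) down, are higher in co-culture, and the lowest is Ndufv2 (1377 and 1056).

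Complex II, which oxidises succinate in the Krebs cycle and feeds the chain, had higher signals for both of its soluble subunits. The flavoprotein Sdha read 1062 alone and 1313 after co-culture (1.24-fold higher), and the iron-sulphur subunit Sdhb had 1535 and 1744 (1.14-fold). Among the anchors, Sdhc had 2058 and 1892 (1.09-fold lower). Sdhd had 1735 and 1712 on its brighter probe set and 1021 and 1118 on the other, so its direction was not settled.

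In complex III, which passes electrons from quinol to cytochrome c, 6 of 8 subunits were higher, with a median of 0.14. Of its electron-carrying subunits, the cytochrome gene Cyc1 had 2759 and 3107 (1.13-fold higher) and the Rieske iron-sulphur protein gene Uqcrfs1 had 2785 and 3024 (1.09-fold). The large core proteins Uqcrc1 (2473 and 2774, 1.12-fold) and Uqcrc2 (1532 and 1739, 1.13-fold) were much alike in ratio. The small subunits lay furthest apart. Uqcr11 had 1124 and 1399 (1.24-fold higher), and Uqcr10 had 2847 and 2034 (1.40-fold lower), while Uqcrh had 2808 and 2949 (1.05-fold) and Uqcrq 2346 and 2330 (1.01-fold), both with a sign that changed over the scalings. Cycs itself, on 2 probe sets that also match related loci, had 2841 and 3224 (1.13-fold higher) and 2092 and 2246 (1.07-fold).

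Complex IV, cytochrome c oxidase, is built from catalytic subunits of the mitochondrial genome and nuclear subunits that include tissue isoforms. Of the 11 nuclear members passing the filter 9 were higher, with a median of 0.12. The largest ratio of all members was that of Cox5a (215 and 368, 1.71-fold higher), but this was a dim probe set. A brighter probe set, which Cox5a shares with another locus, had 3726 and 4241, 1.14-fold. Cox7b had 2672 and 3468 (1.30-fold higher), Cox7c 1836 and 2250 (1.23-fold) and Cox5b 3598 and 4259 (1.18-fold). Cox6c had 3637 and 3941 (1.08-fold).

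Some complex IV subunits have alternative isoforms. Of the general forms, Cox4i1 had 4148 and 4189, Cox6a1 had 3362 and 3510, Cox6b1 had 1975 and 2135, and Cox7a2l, a Cox7a relative that links complexes III and IV, had 1396 and 1540. The log2 ratios of Cox4i1 and Cox6a1 changed sign under other scalings. Cox7a2, on a probe set shared with a related locus, had 2572 and 3148 (1.22-fold higher). Cox8a was lower, at 5324 and 4667 (1.14-fold). Cox4i2, the isoform known from lung and from low oxygen, was the lowest of all members by ratio, with 341 alone and 241 after co-culture (1.41-fold lower).

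The muscle and testis isoforms were all below the filter. Cox8b, of heart and skeletal muscle, had 7.32 and 7.79, and Cox6a2, the other striated muscle isoform, had 14.97 and 28.03, so both were under the floor in both arrays. Cox7a1, also of muscle, had 56.9 and 82.9, and Cox6b2, the testis isoform, had 68.5 and 63.6. The pseudogene Cox6c-ps1 had 121 and 134.

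Signals of marker genes of the neurons and of other cells also differed between the arrays. All 14 sympathetic neuron markers on the array were lower in neurons from co-culture, against 52.7% of all genes passing the filter. Their median log2 ratio was -0.32 and their summed signals 45932 and 37330. Of 13 fibroblast and smooth muscle markers 10 were higher (76.9%, against 47.3% of all genes passing the filter). Their median was 0.25 and their summed signals 47901 and 52056. The 3 lower ones were smooth muscle genes: Acta2 (4040 and 2913), Tagln (4094 and 3500) and Myl9 (1687 and 1430), while Cnn1 was higher (353 and 423). Of 7 glial markers that passed the filter 5 were higher (71.4%, against 47.3% of all genes passing the filter). Fabp7, below the filter, had 101 and 104. The summed signals of the 8 glial markers on the array were 5107 and 5318. Bright probe sets weigh most in such sums, and Pmp22 (3141 and 2916) makes up most of the glial one. Of 20 cardiac markers on the array, the 3 muscle isoforms included, 12 were higher and 8 lower in signal before the floor. The 12 include Cox6a2 and Cox8b and the 8 include Tnni3 and Ryr2, all under the floor in both arrays. The summed signals of the 20 were 1939 and 2392. Of the 4 that passed the filter 3 were higher and 1 lower, where 47.3% of all genes passing the filter were higher. Those 4 were Nppb (180 and 309, 1.72-fold higher), Tnnt2 (293 and 408, 1.39-fold higher), Nppa (178 and 201, 1.13-fold higher) and Pln (284 and 279, 1.02-fold lower). Below the filter, Myl2 had 44.8 and 134, Myh6 74.3 and 134, and Myh7 18.3 and 69.9. Lower there were Ttn (106 and 68.5), Ckmt2 (56.0 and 19.4), Tnnc1 (178 and 160), Ckm (156 and 142) and Myl7 (40.5 and 31.0). Tnni3 and Ryr2 were under the floor in both arrays. No endothelial marker passed. Of the 5 macrophage and leukocyte markers that passed 4 were lower (80.0%, against 52.7% of all genes passing the filter). The part of these cells in the chain gene ratios was not tested, and in such bulk RNA more cells of a type and more RNA per cell cannot be told apart.

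Other genes of mitochondria gave smaller medians than ATP synthase. The median of protein import and chaperone genes, 0.09, was above those of complexes I (0.06) and II (0.08). It was close to the 0.10 of all subunits outside ATP synthase. Under lowess (0.10) and quantile normalization (0.11) it was above each of complexes I to IV. As deposited and under the remaining scalings it was below complexes III (0.14 as deposited) and IV (0.12). A rise of the size seen in complexes I and II was thus not particular to the chain. The 15 measured genes of the Krebs cycle and pyruvate dehydrogenase had a median of 0.04. Of these 9 were higher and 6 lower (60.0% higher, against 47.3% of all genes passing the filter). The highest were Suclg1 of succinyl-CoA ligase (642 and 857, 1.34-fold) and the malate dehydrogenase gene Mdh2 (1918 and 2426, 1.26-fold), and the lowest were Pdhb (1405 and 1284, 1.09-fold lower) and Sucla2 (1028 and 952, 1.08-fold lower). Of 29 genes of protein import and mitochondrial chaperones 20 were higher (69.0%, against 47.3% of all genes), with a median of 0.09. Their highest were the small import chaperones Timm8a1 (239 and 348, 1.46-fold) and Timm13 (1161 and 1580, 1.36-fold), and their lowest Clpp (466 and 395, 1.18-fold lower) and Pmpca (883 and 783, 1.13-fold lower).

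The 29 measured assembly and copper delivery factors outside the Nduf names had a median of -0.01 and a mean of 0.03. Of these 14 were higher and 15 lower (48.3% higher, close to the 47.3% of all genes passing the filter). Uqcc2, an assembly factor of complex III, had 573 and 895 (1.56-fold higher), and Coa3, which supports the making of complex IV, 461 and 705 (1.53-fold higher). Bcs1l, which inserts the Rieske protein into complex III, had 259 and 206 (1.26-fold lower), and Cox10, a haem-modifying enzyme for complex IV, 339 and 276 (1.23-fold lower). Of 19 carriers and pores of the mitochondrial membranes 10 were higher and 9 lower (52.6% higher, against 47.3% of all genes). Their median was 0.05 and their mean -0.03. The glutamate carrier Slc25a22 was 1.86-fold lower (949 and 511), and the uncoupling protein Ucp2 had a log2 ratio of -0.32 (1118 and 895). Etfb, an electron carrier of fatty acid oxidation, was 1.34-fold higher (412 and 550), and the carnitine carrier Slc25a20 1.15-fold higher (273 and 313).

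**Figure D4:**
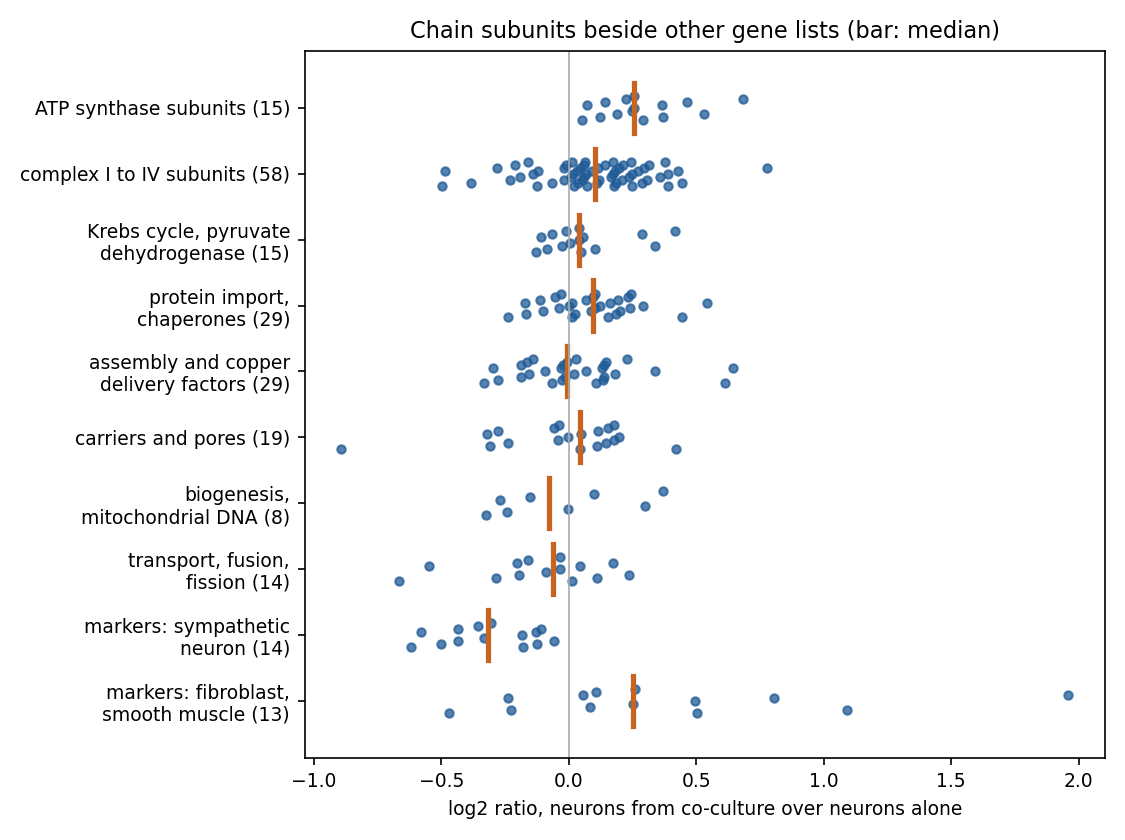
Log2 ratios of genes passing the filter (points) and their median (bar) for ATP synthase subunits, the other chain subunits, 6 further mitochondrial lists and 2 marker lists, with the number of genes in parentheses. The ATP synthase median is 0.26, the sympathetic neuron marker median is -0.32 and that of fibroblast and smooth muscle markers is 0.25.

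The order of the complexes under other scalings is shown last. The ATP synthase median ran from 0.16 (spiked controls) to 0.34 (median scaling) and was the highest of the 5 complexes under each of the 6 scalings, at 0.19 to 0.27 above the median of all genes. The other 4 complexes lay 0.05 to 0.16 above it, and their order among themselves changed.

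**Figure D5:**
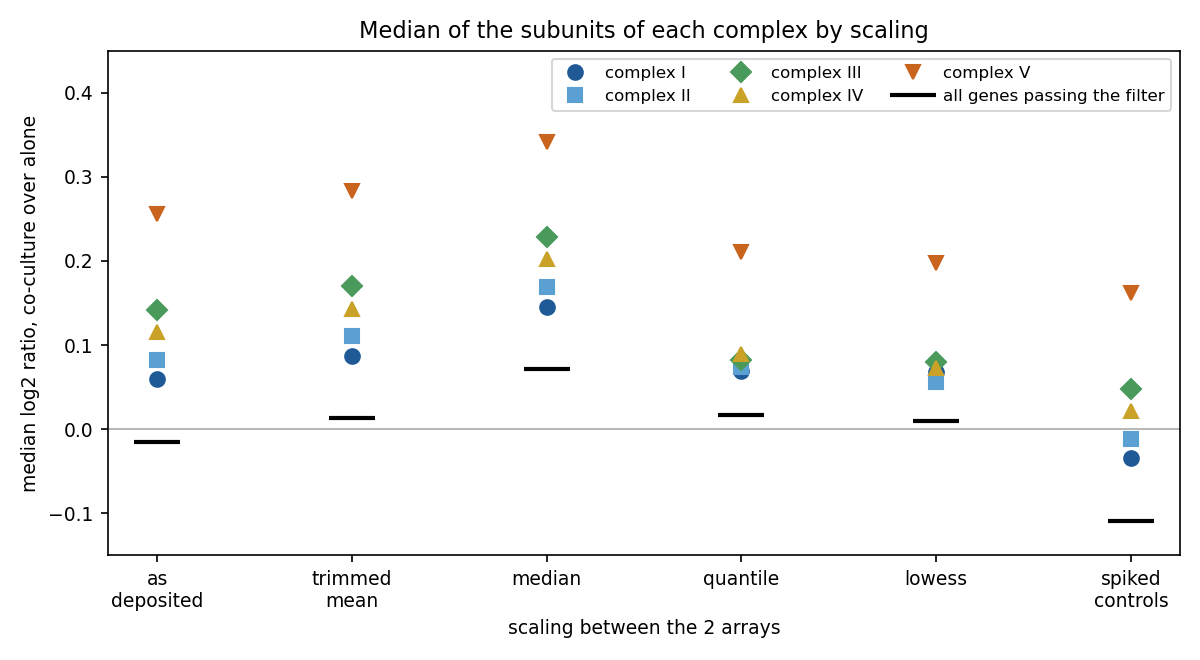
Median log2 ratio of the subunits of each complex (coloured symbols) and of all genes passing the filter (black bars) under 6 scalings of the 2 arrays. Complex V is highest under each scaling, and complexes I and II fall below 0 with the spiked controls (-0.03 and -0.01).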

How the data were processed

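Biotin-labelled cRNA from column-purified RNA was hybridised, per the labels' protocols, to a 1-colour Affymetrix Rat Expression Set 230A array, 1 per group, grouped by sample title. The deposited values are linear intensities per probe set. The design text names dChip 1.3 for the authors' quantification and the submitters' processing notes name MAS5. Between these tools, the origin of the deposited intensity was not settled, and its background step and scaling target are not given in the labels or series text. No count or depth applies, and the number of arrays limits the precision.

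Intensities were used as deposited. Of 15866 non-control probe sets, 12783 had 1 symbol, and a gene's probe set was that of highest mean log2 intensity. Values under the pooled 20th percentile (39.6) were set to it before log2 ratios. Members, roles and lists were chosen with earlier results of these data known. Values are printed for every member that passed the filter and is among the 3 brightest or the 2 highest or lowest ratios of its complex, all isoform pairs, assembly factors and the inhibitor, all ratios past 1.5-fold, and the 2 highest and lowest of each further mitochondrial list. Other members were added after their values were seen. Alternatives covered 5 scalings, 3 floors, 3 filters and 3 ways to choose a probe set. The computation (Python 3.11.15, numpy 2.4.6, pandas 2.3.3) was tested on simulated arrays with known changes of 2-fold. No member reached 2-fold, and recovery of smaller shifts was not tested.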

Additional observations from a re-analysis of the deposited data

How the results depend on the processing

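The 1 array per condition limits every value, and dim probe sets are the least certain. Of 14 alternatives, those of scale mattered most. A median counted as moved past 0.1 on the log2 scale, and a count past 1.5 times. With the spiked controls the medians of complex I (-0.035), complex II (-0.011), the Krebs cycle (-0.053) and the carriers and pores (-0.049) turned negative, 34 members were lower in place of 18, and 7 in place of 13 were higher by at least 0.32 (4.95% of all genes). Median scaling gave 26 members higher by at least 0.32 (14.1% of all genes) and 2 lower in place of 4, and turned the medians of biogenesis genes (0.0088) and of transport, fusion and fission (0.025). Filtering at the 75th percentile also gave 2 lower. The median of assembly factors, close to 0, turned under median scaling (0.081), lowess (0.0088), quantile normalization (0.014), trimmed mean scaling (0.022) and the 75th percentile filter (0.026). That of carriers and pores turned under lowess (-0.0076), quantile normalization (-0.017), no filter (-0.021), the 25th percentile filter (-0.0039) and the mean over probe sets (-0.0039), which also turned the Krebs cycle (-0.011). The median of all genes, -0.015, was 0.072 under median scaling, 0.017 under quantile normalization, 0.018 with the 75th percentile filter, 0.0096 under lowess and 0.013 under trimmed mean scaling. Beyond the shift that a scaling gives an array, the cause was not tested. No paired analysis was possible because each group had 1 array. The next brightest probe set existed for 4 members and gave no median for a complex.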

Other observations

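Of 14 measured genes that move, fuse and divide mitochondria, 9 were lower in neurons from co-culture (64.3%), against 52.7% of all genes passing the filter, and 5 were higher. Their median log2 ratio was -0.06, or 0.025 under median scaling, so the list had no settled direction. Pink1, a kinase that marks damaged mitochondria, read 207 alone and 130 after co-culture (1.59-fold lower). Opa1, which fuses the inner membrane, had 671 and 459 (1.46-fold lower). The highest were Park7, a protein of oxidative stress defence (1147 and 1349, 1.18-fold), and Bnip3l, a receptor for mitochondrial removal (809 and 914, 1.13-fold).

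Of the regulators of mitochondrial biogenesis and mitochondrial DNA, 8 passed the filter, with a median of -0.08. Of these 3 were higher and 5 lower (62.5% lower, against 52.7% of all genes passing the filter). The highest were Prkaa1, a catalytic subunit of the energy sensor AMPK (389 and 503, 1.29-fold), and Polg, the mitochondrial DNA polymerase (342 and 422, 1.23-fold). The lowest were Mterf1, a mitochondrial transcription termination factor (469 and 375, log2 ratio -0.32), and Esrrb, an orphan nuclear receptor (193 and 160, 1.21-fold lower). Tfam, which packages and transcribes mitochondrial DNA, had 575 and 517 (1.11-fold lower) and was named after its value was seen. Ppargc1a, the coactivator of mitochondrial biogenesis, was under the floor in both arrays (2.26 and 2.43) and was also named after its value was seen.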
